A study of Homo sapiens with 24 samples.

Results

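A2780 is an established human cell line, labelled as epithelial ovarian cancer. This account sets A2780 cells kept for 48 hr in a chamber at 1% oxygen (hypoxia 48 hr, libraries 7 and 8) against A2780 cells kept there for 6 hr (hypoxia 6 hr, libraries 3 and 4). The members are these 4 libraries of total RNA, chosen by their labels, of 24 samples in the series. Cells at normal oxygen for 48 hr (normoxia 48 hr, libraries 5 and 6) and for 6 hr (normoxia 6 hr, libraries 1 and 2) give the same interval at normal oxygen; their means do not enter the hypoxia difference, although all 12 libraries share 1 estimate of the spread. The medium of all groups was RPMI, and it held fetal bovine serum at 10 to 15%. Ribosomal RNA was depleted before sequencing. The labels state no purpose for comparing times within hypoxia. They do not say that both libraries of a group are different cultures, and the spread behind every p value may therefore be technical.

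Cells short of oxygen stop degrading the alpha subunits of the hypoxia-inducible factors (HIF), which then bind DNA near their target genes and raise transcription of glycolytic enzymes, glucose transporters, angiogenic factors and proteins that limit the use of oxygen. The enzymes that mark HIF for degradation are HIF targets themselves. Lasting hypoxia can also engage the integrated stress response, in which the factor ATF4 raises genes of amino acid supply, and brakes on the growth kinase mTORC1.

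Values are RPKM, reads per kilobase of transcript scaled to the depth of the library. The read totals inferred from steps in the low values of the precursor miRNA table were 34.9 and 35.3 M (M, 1e6 reads) at hypoxia 48 hr, and 38.3 and 35.6 M at hypoxia 6 hr. Replicates of hypoxia 48 hr had a Pearson r of 0.9951 across tested genes and a median absolute log2 difference of 0.0886, against 0.9936 and 0.126 at hypoxia 6 hr. The RNA held EPCAM (38.1 to 42.2 RPKM) and KRT18 (32.3 to 38.2 RPKM), which mark epithelium. Of 14 epithelial ovarian markers, 9 lay under 0.1 RPKM in all 4 hypoxia libraries, among them PAX8, MUC16 and KRT7, and CD24 and CLDN3 were listed at 0. Library 4 stood apart: 12 genes reached at least 1 RPKM there and at least 5 times their level in any other library, among them HBB at 20.2 RPKM and COL1A2 at 3.06 RPKM. The summed erythroid and adipocyte markers were 2.22 and 2.56 RPKM at hypoxia 48 hr, against 0.654 in library 3 and 31.6 in library 4 at hypoxia 6 hr. The summed leukocyte markers were 0.457 and 0.464 RPKM at hypoxia 48 hr, against 0.67 in library 3 and 2.25 in library 4. None of the 12 genes was among the calls reported here. Counts of gene groups are therefore also given without library 4.

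Between 6 and 48 hr of hypoxia 589 genes rose and 108 fell, of 11933 tested. A call is an adjusted p under 0.05 in limma on log2(RPKM + 0.5), adjusted over every tested gene by Benjamini and Hochberg's method. Folds below are on that scale, which makes the folds of low genes too small. The called genes are 5.84% of all tested, 4.94% higher and 0.905% lower, which are the shares to set beside each gene group below. Most changes were small: 54 genes rose and 9 fell by at least 2-fold, and the median log2 fold change was 0.56 among the genes that rose and -0.49 among those that fell. Over all tested genes the median was 0.07. Among the calls 84.5% were higher, a share that fell to 64.7% with quantile normalization and to 65.5% with centring on a trimmed mean. With only the 4 hypoxia libraries in the fit 539 genes were called. The libraries of both groups did not overlap for any of the 697 called genes, nor for 57.1% of all tested genes.

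The number of calls rested on single libraries. It was 87 without library 4 (83 higher, 4 lower), 80 without library 7 (77 higher, 3 lower), 181 without library 8 (168 higher, 13 lower) and 658 without library 3. All 697 genes kept their sign each time. Of 112 called genes named here, 35 remained called without each of the 4 libraries in turn and under every other setting that tested them. The filter of at least 1 RPKM in 6 libraries did not test CA9, NPPB, KISS1R, FGF21, LOX and NOTCH3 among these 35. The other 77 lost the call without library 4 or library 7, with an adjusted p of at most 0.325 in any such fit. Calls that ended without a library are named below with the highest adjusted p.

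**Figure D1:**
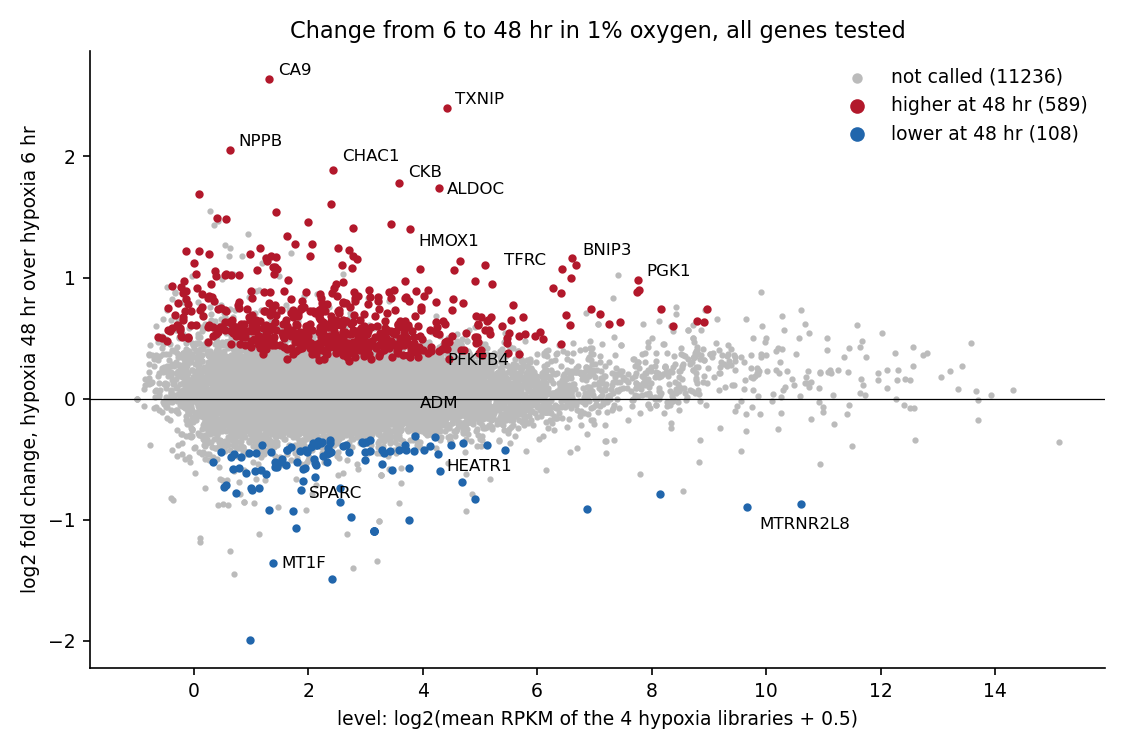
Log2 fold change of hypoxia 48 hr over hypoxia 6 hr against the mean level in the 4 hypoxia libraries, 1 point per tested gene, with 589 higher genes in red and 108 lower genes in blue. The higher genes spread over all levels CA9 and TXNIP lie highest, and most called genes lie within 2-fold of no change.

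The gene with the highest fold change was CA9, a membrane carbonic anhydrase of pH regulation and a standard HIF marker. CA9 stood at 4.48 and 3.13 RPKM at hypoxia 48 hr, against 0.151 and 0.217 RPKM at hypoxia 6 hr, and at no more than 0.0248 RPKM in the normoxia libraries. It was 6.23-fold higher (log2 2.64, SE 0.146, adjusted p = 1.74e-05). TXNIP, which binds thioredoxin and lowers glucose uptake, stood at 37.9 and 33.4 RPKM at hypoxia 48 hr and at 5.51 and 7.28 RPKM at hypoxia 6 hr. Normoxia ran from 4.79 to 7.23 RPKM, with library 3 inside that range and library 4 just above it (hypoxia 48 hr over 6 hr 5.27-fold higher, log2 2.40, SE 0.142, adjusted p = 1.81e-05). Its relative ARRDC4, another arrestin-family protein, followed with 5.84 and 4.93 RPKM at hypoxia 48 hr and 1.62 and 1.64 RPKM at hypoxia 6 hr (2.76-fold higher). In normoxia ARRDC4 lay between 1.19 and 1.59 RPKM.

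TXNIP and ARRDC4 are known targets of the glucose-sensing factors MondoA and ChREBP, which bind paired E boxes. The RefSeq promoter table (assembly GRCh38.p14, 250 bases before to 50 after the start) held 9020 of the 11933 tested genes. It was searched on both strands for the carbohydrate response element, 2 copies of CACGNG with 5 bases between them, and 14 of the 9020 tested genes (0.155%) and 20 of 27305 symbols (0.0732%) had a match. Among the 456 higher genes with a window 3 had a match (0.658%). Whether ARRDC4 had one is not given here. TXNIP was one of the genes with a match. Its bases 130 to 31 before the start, chr1:145996610-145996709 on the minus strand, are printed with the match in capitals because it is the rarest of the motifs searched.
TXNIP: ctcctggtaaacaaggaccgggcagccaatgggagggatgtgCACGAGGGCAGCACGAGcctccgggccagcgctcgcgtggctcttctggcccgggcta
A match describes the letters and not the binding of a factor.

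The other genes of the highest 12 included secreted, signalling and cytoskeletal proteins. NPPB, the B-type natriuretic peptide, had 2.42 and 1.58 RPKM at hypoxia 48 hr, against 0.0747 and 0.121 RPKM at hypoxia 6 hr (4.13-fold higher, adjusted p = 9.87e-05). CKB, brain-type creatine kinase, had 19.9 and 16.6 RPKM at hypoxia 48 hr and 5.35 and 4.52 RPKM at hypoxia 6 hr (3.44-fold). At 6 hr of hypoxia CKB lay within its normoxia range over both times, 2.94 to 5.37 RPKM. It lay above normoxia at 6 hr alone, which had 3.25 and 2.94 RPKM. NPPB at 6 hr of hypoxia lay just above its normoxia values, the highest of which was 0.0703 RPKM. KISS1R, the kisspeptin receptor, had 3.71 and 3.36 RPKM at hypoxia 48 hr and 0.931 and 0.847 RPKM at hypoxia 6 hr (2.9-fold). FSCN1, which bundles actin filaments, had 15.8 and 15.1 RPKM at hypoxia 48 hr and 5.75 and 5.01 RPKM at hypoxia 6 hr (2.72-fold). DPYSL4, a dihydropyrimidinase-like protein of axon growth, had 10.1 and 8.99 RPKM at hypoxia 48 hr and 3.50 and 3.06 RPKM at hypoxia 6 hr (2.66-fold). These 3 genes were above all normoxia libraries already at 6 hr and higher again at 48 hr. Each of the 12 remained called without each library in turn, with an adjusted p of at most 0.00644.

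**Figure D2:**
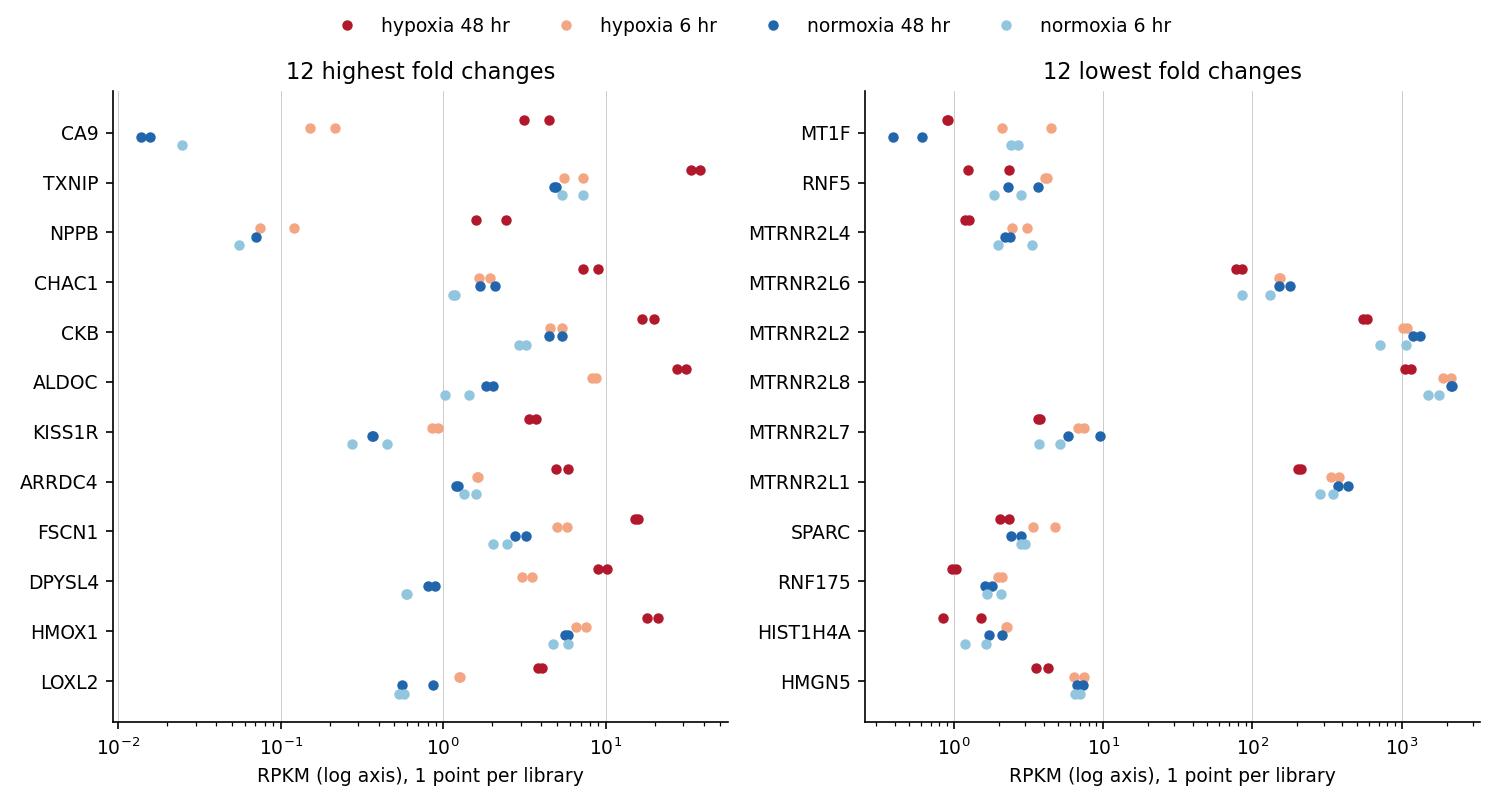
RPKM per library on a log axis for the 12 highest and 12 lowest fold changes among named genes, with the groups in the order hypoxia 48 hr, hypoxia 6 hr, normoxia 48 hr and normoxia 6 hr. Values listed at 0 (CA9 and NPPB in normoxia) are not drawn. The hypoxia 48 hr points of the 12 genes at left lie to the right of all others, and those of the 12 genes at right lie to the left of the hypoxia 6 hr points.

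HIF targets rose together: 37 of 61 tested members were higher and none lower, 60.7% against 4.94% of all genes. Their median log2 fold change was 0.62, and it was 0.08 over the same interval in normoxia. The count was 17 without library 4, 14 without library 7, 24 without library 8 and 34 without library 3. ALDOC, an aldolase of glycolysis, had 31.2 and 27.5 RPKM at hypoxia 48 hr and 8.67 and 8.18 RPKM at hypoxia 6 hr (3.34-fold higher, log2 1.74, SE 0.132, adjusted p = 6.08e-05). LOXL2, a lysyl oxidase that cross-links collagen, had 4.03 and 3.84 RPKM at hypoxia 48 hr and 1.26 and 1.25 RPKM at hypoxia 6 hr (2.53-fold). VLDLR, a lipoprotein receptor, had 5.64 and 4.74 RPKM at hypoxia 48 hr and 2.22 and 1.81 RPKM at hypoxia 6 hr (2.27-fold). The 4 normoxia libraries lay below the hypoxia 6 hr libraries for all 3 genes.

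The mitophagy receptors BNIP3 and BNIP3L, which lead mitochondria to degradation, roughly doubled. BNIP3 had 146 and 133 RPKM at hypoxia 48 hr and 68.1 and 61.3 RPKM at hypoxia 6 hr (2.14-fold, adjusted p = 0.000292). BNIP3L had 36.4 and 31.8 RPKM at hypoxia 48 hr and 14.1 and 16.4 RPKM at hypoxia 6 hr (2.20-fold, adjusted p = 0.000133). PDK1, the kinase that shuts pyruvate out of the TCA cycle, had 19.1 and 18.9 RPKM at hypoxia 48 hr and 11.1 and 11.4 RPKM at hypoxia 6 hr (1.65-fold, adjusted p = 0.00108). These calls held without each library in turn. NDRG1, a stress protein that HIF strongly raises in many cells, was low here, with 0.493 and 0.487 RPKM at hypoxia 48 hr and 0.169 and 0.137 RPKM at hypoxia 6 hr. Its call (adjusted p = 0.0171) ended without library 4, 7 or 8, with an adjusted p of up to 0.145.

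ACGTG was searched as the core that HIF binds, and CACGT is the same core on the other strand. No other form of the core was searched, so the shares and capitals below cover ACGTG alone. Within the promoter windows 29 of 51 HIF targets (56.9%) held it, against 27.6% of tested genes with a window and 21.6% of all symbols. The share was 58.1% of the 31 targets that rose and 55% of the 20 that were not called, and it was 28.1% over all higher genes. Windows of 100 bases are printed for the 3 index genes CA9, ALDOC and BNIP3, with the core in capitals. They are bases 100 to 1 before the start for CA9 (chr9:35673828-35673927, plus strand) and ALDOC (chr17:28576896-28576995, minus strand), and bases 180 to 81 for BNIP3 (chr10:131982004-131982103, minus strand), all GRCh38.p14 from RefSeq.
CA9: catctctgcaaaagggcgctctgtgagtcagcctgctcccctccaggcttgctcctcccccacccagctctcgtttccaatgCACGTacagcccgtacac
ALDOC: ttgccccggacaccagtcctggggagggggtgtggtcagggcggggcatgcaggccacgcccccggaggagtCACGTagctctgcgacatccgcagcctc
BNIP3: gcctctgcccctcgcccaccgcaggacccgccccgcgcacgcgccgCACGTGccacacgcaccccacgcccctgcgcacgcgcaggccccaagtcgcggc
In BNIP3 the cores of both strands overlap in 1 palindrome.

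A further 24 tested HIF targets did not pass the test, with log2 fold changes from -0.07 to 0.62, and 22 of these values were positive. Among them were genes that had much more RNA at 6 hr of hypoxia than in normoxia. PFKFB4, which makes a glycolytic activator, had 21.3 and 19.8 RPKM at hypoxia 48 hr and 18.9 and 15.9 RPKM at hypoxia 6 hr, against 1.07 to 1.24 RPKM in normoxia. Its log2 fold change between times was 0.24 (95% interval 0.03 to 0.45, adjusted p = 0.174). The glucose transporter SLC2A1 had 21.5 and 20 RPKM at hypoxia 48 hr and 20 and 17.8 RPKM at hypoxia 6 hr (log2 0.13, 95% interval -0.09 to 0.35). ADM, the vasodilator peptide adrenomedullin, had 15.0 and 12.6 RPKM at hypoxia 48 hr and 13.4 and 12.9 RPKM at hypoxia 6 hr (log2 0.06, 95% interval -0.21 to 0.32). The libraries of both times overlapped for SLC2A1 and ADM. For each of the 3 genes the interval excludes a rise as large as that of BNIP3, log2 1.10.

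The oxygen sensors and HIF subunits gave no call, and 0 of 11 tested members of that list passed in limma, with 2 at an unadjusted p under 0.05 and 1 call when only the libraries of the groups compared were fitted. EGLN1, the main prolyl hydroxylase that marks HIF, had 21.8 and 18.8 RPKM at hypoxia 48 hr and 17.5 and 17.6 RPKM at hypoxia 6 hr (log2 0.20, 95% interval -0.06 to 0.46). Outside that list, the angiogenic ligand VEGFA had 13.1 and 12.3 RPKM at hypoxia 48 hr and 11.5 and 10.2 RPKM at hypoxia 6 hr (log2 0.22, 95% interval -0.03 to 0.47). HIF1A, which encodes the HIF-1 alpha subunit, had 13.3 and 15.5 RPKM at hypoxia 48 hr and 15.6 and 19.6 RPKM at hypoxia 6 hr (log2 -0.28, 95% interval -0.69 to 0.14). These intervals include 0. EPAS1, which encodes HIF-2 alpha, did not reach 1 RPKM in 2 of the 12 libraries and was not tested. It had 0.244 and 0.197 RPKM at hypoxia 48 hr and 0.0959 and 0.272 RPKM at hypoxia 6 hr. EGLN3, another prolyl hydroxylase, was also untested, with 0.295 and 0.301 RPKM at hypoxia 48 hr and 0.220 and 0.206 RPKM at hypoxia 6 hr.

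**Figure D3:**
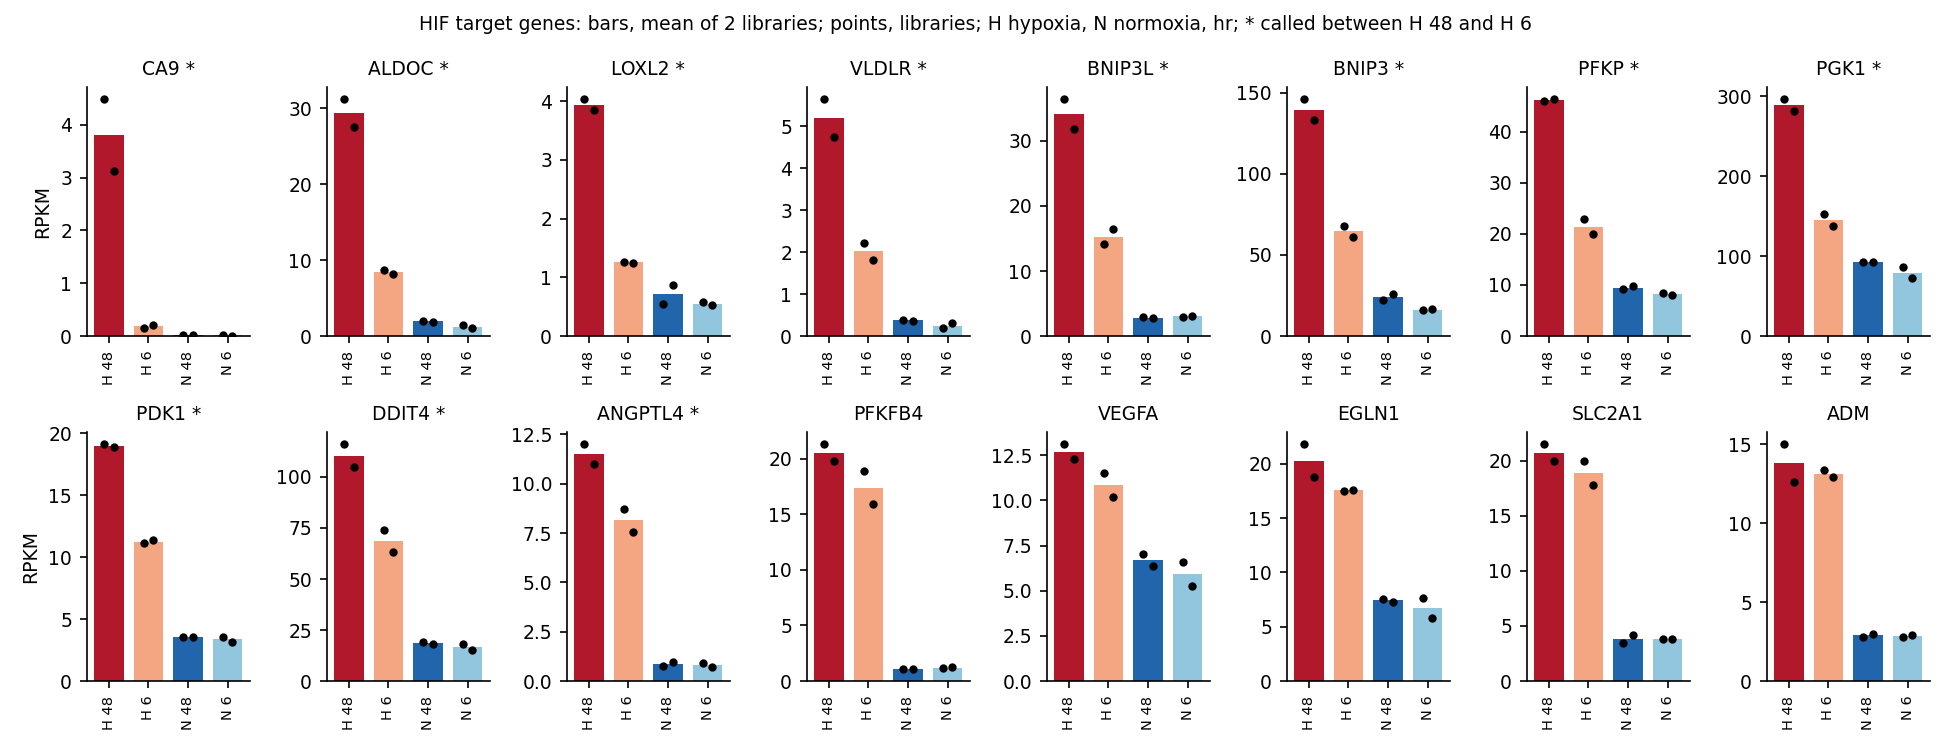
RPKM of 16 HIF targets in 4 groups (H hypoxia, N normoxia, hours below), with bars for the mean of 2 libraries, points for libraries and a star for a call between H 48 and H 6. CA9 to ANGPTL4 stand higher at 48 hr than at 6 hr of hypoxia, while PFKFB4, VEGFA, EGLN1, SLC2A1 and ADM give no call.

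Glycolysis and glycogen genes overlap with the HIF list, and 19 of 33 tested members (57.6%) rose, none fell, with a median log2 fold change of 0.62. The count was 9 without library 4, 7 without library 7 and 12 without library 8. PFKP, a phosphofructokinase, had 45.9 and 46.3 RPKM at hypoxia 48 hr and 22.8 and 19.9 RPKM at hypoxia 6 hr (2.14-fold higher, adjusted p = 0.000123). PGK1, phosphoglycerate kinase, had 296 and 281 RPKM at hypoxia 48 hr and 153 and 138 RPKM at hypoxia 6 hr (1.98-fold, adjusted p = 0.00116). SLC16A3, which exports lactate, had 40.9 and 37.5 RPKM at hypoxia 48 hr and 22.3 and 17.5 RPKM at hypoxia 6 hr (1.96-fold, adjusted p = 0.00124). These 3 calls held without each library in turn. CA9 and SLC16A3 were also the 2 called genes of 8 in pH regulation (25%), with and without library 4. PGK1 and other glycolytic genes have processed pseudogenes, and how reads shared with them were counted is not given in the sources used here.

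The genes of oxidative metabolism moved less. In the TCA cycle and pyruvate entry list 3 of 31 rose: PDK1, its relative PDK3 (11 and 10.2 RPKM at hypoxia 48 hr, 6.16 and 6.72 RPKM at hypoxia 6 hr) and the isocitrate dehydrogenase IDH2, with 2 called without library 4. In the respiratory chain 3 of 76 rose: NDUFB8, COX8A and NDUFB11, with folds of 1.60, 1.37 and 1.28. At 3.95% that share is near the 4.94% of all genes, and it was 0 without library 4. The call of PDK3 ended without library 7 (adjusted p = 0.0799), that of NDUFB8 without library 4 or 7 (up to 0.105), that of COX8A without 4, 7 or 8 (up to 0.204), and those of IDH2 and NDUFB11 without any 1 of the 4 libraries (up to 0.279).

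Collagen and matrix enzymes gave 7 higher genes of 17 tested (41.2%) and 1 lower. The higher ones included LOXL2, its relative LOX (1.82 and 1.40 RPKM at hypoxia 48 hr, 0.509 and 0.556 RPKM at hypoxia 6 hr, 2.03-fold), the lysyl hydroxylase PLOD2 (1.66-fold) and the collagen chain COL6A1 (1.62-fold). The lower one was SPARC, a secreted collagen-binding protein, with 2.35 and 2.05 RPKM at hypoxia 48 hr and 3.38 and 4.79 RPKM at hypoxia 6 hr. Without library 4 the counts were 3 higher and 0 lower, as they were without library 7. PLOD2 lost its call without library 7 (adjusted p = 0.0822), COL6A1 without 4 or 8 (up to 0.0849) and SPARC without 4, 7 or 8 (up to 0.183). The fibroblast markers TAGLN and LUM also rose, and the summed fibroblast markers, most of which is TAGLN, were 233 and 233 RPKM at hypoxia 48 hr, against 173 and 144 RPKM at hypoxia 6 hr. The other 4 tested markers were not called, with log2 fold changes of 0.37 for ACTA2, 0.29 for DCN, 0.01 for THY1 and -0.24 for COL3A1. In that list PDGFRB and FAP lay under 0.1 RPKM in all 4 libraries, COL1A1 (2.50 RPKM) and COL1A2 were highest in library 4, and the part of other cells in these results was not tested. TAGLN had 166 and 169 RPKM at hypoxia 48 hr and 119 and 89.1 RPKM at hypoxia 6 hr, and LUM had 15.2 and 13.4 RPKM at hypoxia 48 hr and 9.57 and 8.38 RPKM at hypoxia 6 hr. Both calls ended without library 4, 7 or 8 (adjusted p up to 0.232). Of 9 endothelial markers ESAM alone was tested (0.720 and 0.772 RPKM at hypoxia 48 hr, 0.377 and 0.255 RPKM at hypoxia 6 hr), with a call that ended without any 1 of the 4 libraries (up to 0.296), and 7 lay under 0.1 RPKM in all 4. Fewer cells of a type and less RNA per cell cannot be told apart in such bulk samples.

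Of 16 secreted and angiogenic factors 6 rose (37.5%) and none fell. Beside NPPB they included ANGPTL4, which inhibits lipoprotein lipase (12 and 11 RPKM at hypoxia 48 hr, 8.74 and 7.56 RPKM at hypoxia 6 hr). STC1, the secreted glycoprotein stanniocalcin, had 0.310 and 0.219 RPKM at hypoxia 48 hr and 0.0404 and 0.0290 RPKM at hypoxia 6 hr. The count was 1 without library 4 and 1 without library 7, NPPB being called in both fits, and 3 under either other scaling. ANGPTL4 lost its call without 4, 7 or 8 (adjusted p up to 0.307) and STC1 without any 1 of the 4 libraries (up to 0.241).

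The ATF4 and amino acid stress list was the third large group. Gene lists share members: here VLDLR and DDIT4 are also HIF targets, and ATF3 is also in the AP-1 list. SESN2 is also in the mTORC1 and p53 lists. A difference from the normoxia change was called for 5 of the 39 tested members. Between both times of hypoxia 18 of 39 tested members (46.2%) rose and none fell. The median log2 fold change was 0.42 in hypoxia and 0.17 in normoxia. The count was 8 without library 4, 7 without library 7 and 11 without library 8. CHAC1, which breaks down glutathione, had 8.91 and 7.20 RPKM at hypoxia 48 hr and 1.65 and 1.94 RPKM at hypoxia 6 hr (3.72-fold higher, log2 1.89, SE 0.128, adjusted p = 4.43e-05). SESN2, a leucine sensor that restrains mTORC1, had 9.18 and 8.16 RPKM at hypoxia 48 hr and 3.42 and 3.39 RPKM at hypoxia 6 hr (2.34-fold, adjusted p = 5.21e-05). FGF21, a stress hormone, had 0.777 and 0.767 RPKM at hypoxia 48 hr and 0.0295 and 0.0635 RPKM at hypoxia 6 hr (2.33-fold, adjusted p = 0.000713). Over both times normoxia ran from 1.14 to 2.09 RPKM for CHAC1. It ran from 2.72 to 3.03 RPKM for SESN2 and from 0.0432 to 0.139 RPKM for FGF21. For each gene the 48 hr hypoxia libraries lay above all 4 normoxia libraries, and the 6 hr hypoxia values lay within or near that range. At 6 hr alone normoxia lay below both hypoxia libraries for CHAC1 (1.14 and 1.18 RPKM) and SESN2 (2.94 and 2.72 RPKM). For FGF21 hypoxia and normoxia overlapped at 6 hr.

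ATF4 itself and DDIT3, the factor CHOP that acts downstream of it, are given after their values were seen. ATF4 had 103 and 98.0 RPKM at hypoxia 48 hr and 57.6 and 49.0 RPKM at hypoxia 6 hr (1.88-fold higher, adjusted p = 0.00242). In normoxia ATF4 had 72.9 and 71.8 RPKM at 48 hr and 58.5 and 46.6 RPKM at 6 hr (log2 0.47, not called). Its hypoxia change did not pass the limma test of the difference from normoxia (log2 difference 0.44, adjusted p = 0.386). DDIT3 had 8.44 and 6.69 RPKM at hypoxia 48 hr and 3.63 and 3.59 RPKM at hypoxia 6 hr (1.95-fold, adjusted p = 0.000627). Both 48 hr hypoxia libraries lay above the 4 normoxia libraries for each gene, and both calls held without each library in turn (adjusted p up to 0.0466 for ATF4 and 0.00990 for DDIT3). ER chaperones and genes of the unfolded protein response, which share the sensor PERK with this pathway, gave 1 call in 28, SYVN1 (1.26-fold), which ended without any 1 of the 4 libraries (adjusted p up to 0.226). Their median log2 fold change was 0.07, the median of all genes.

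ATF4 binds composite sites with C/EBP factors, and TGATGNAA was searched on both strands as such a site. Of 31 list members with a window 9 held it (29%), against 1.62% of tested genes and 3.67% of all symbols. It was found in 5 of 15 members that rose and in 4 of 16 that were not called. Windows of 100 bases are printed for CHAC1 (chr15:40953221-40953320, plus strand, the first 100 bases of its window) and FGF21 (chr19:48755414-48755513, plus strand, bases 110 to 11 before the start), 2 of the 5 that rose and held a match, with the site in capitals.
CHAC1: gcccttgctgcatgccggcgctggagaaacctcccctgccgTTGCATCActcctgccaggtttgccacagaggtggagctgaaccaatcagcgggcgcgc
FGF21: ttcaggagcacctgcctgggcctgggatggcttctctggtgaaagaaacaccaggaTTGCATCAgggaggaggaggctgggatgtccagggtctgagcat
Both carry the same letters, TTGCATCA, the other strand of the motif.

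Regulators of mTORC1 gave 4 higher genes of 11 (36.4%): SESN2 and DDIT4, which restrain the kinase, and RRAGD and RRAGC, Rag GTPases that bring it to the lysosome where it is activated. RRAGD had 7.45 and 6.31 RPKM at hypoxia 48 hr and 3.33 and 3.30 RPKM at hypoxia 6 hr (1.93-fold, adjusted p = 0.000961). DDIT4, the HIF target REDD1 that restrains mTORC1, had 116 and 105 RPKM at hypoxia 48 hr and 74.0 and 63.2 RPKM at hypoxia 6 hr (1.61-fold, adjusted p = 0.00869). Without library 4 the count was 2, SESN2 and RRAGD. DDIT4 lost its call without 4 or 7 (adjusted p up to 0.105), and RRAGC without any 1 of the 4 libraries (up to 0.286). In the mitophagy and autophagy list 5 of 23 rose (21.7%), 2 without library 4, and beside BNIP3 and BNIP3L these were led by GABARAPL1, an LC3 relative (1.54-fold), and the kinase PINK1 (1.44-fold), both of which lost the call without 4, 7 or 8 (up to 0.271). None of 24 lysosome genes was called in limma, with 4 at an unadjusted p under 0.05.

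Immediate-early and AP-1 genes, the transcription factors that respond fast to stimuli, gave 9 higher of 22 (40.9%) and none lower. The count was 2 without library 4 and 2 without library 7. JUND had 31.8 and 30.5 RPKM at hypoxia 48 hr and 15.9 and 13.6 RPKM at hypoxia 6 hr (2.08-fold, adjusted p = 0.000338), and ATF3 had 8.53 and 6.92 RPKM at hypoxia 48 hr and 3.43 and 3.21 RPKM at hypoxia 6 hr (2.14-fold, adjusted p = 0.00233). Both held without each library in turn. JUN (18.0 and 15.3 RPKM at hypoxia 48 hr, 8.72 and 7.73 RPKM at hypoxia 6 hr) lost its call without 4 or 7 (adjusted p up to 0.126), and EGR1 lost it without any 1 of the 4 libraries (up to 0.172). The count was also 4 with no filter on low values and 5 after quantile normalization. No difference from the normoxia change was called in this list, and its normoxia median was 0.17.

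Sterol and fatty acid synthesis gave 10 higher of 31 (32.3%) and none lower, 2 without library 4 and 2 without library 7. INSIG1, which retains the sterol sensor in the endoplasmic reticulum, had 10.6 and 10.1 RPKM at hypoxia 48 hr and 5.25 and 5.42 RPKM at hypoxia 6 hr (1.86-fold, adjusted p = 0.00014). MVD, a mevalonate pathway enzyme, had 6.63 and 7.01 RPKM at hypoxia 48 hr and 3.68 and 3.44 RPKM at hypoxia 6 hr (1.80-fold, adjusted p = 0.00105). Those 2 held without each library in turn. The oxygen-using desaturases FADS2 (43.1 and 40.4 RPKM at hypoxia 48 hr, 28.4 and 25.1 RPKM at hypoxia 6 hr) and SCD (121 and 110 RPKM at hypoxia 48 hr, 77.2 and 73.7 RPKM at hypoxia 6 hr) rose 1.55-fold and 1.52-fold. FADS2 lost its call without 4, 7 or 8 (adjusted p up to 0.183) and SCD without 4 or 7 (up to 0.105). The median of the list was 0.27 in hypoxia and 0.23 in normoxia.

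Growth arrest and cell death genes moved in part. Of 27 p53 targets 8 rose (29.6%), 2 without library 4, 4 with no filter and 4 after quantile normalization, and their median was 0.11. BBC3, the death activator PUMA, had 3.02 and 3.39 RPKM at hypoxia 48 hr and 1.30 and 1.22 RPKM at hypoxia 6 hr (2.10-fold, adjusted p = 0.00233) and held without each library. Among cyclins and CDK inhibitors 4 of 27 rose: the inhibitors CDKN1C, CDKN1A and CDKN2D (1.88-, 1.73- and 1.57-fold) and CCND1, cyclin D1 (1.36-fold). That count was 0 without library 4 and 0 without library 7, with adjusted p up to 0.227, and without library 8 it was 1. CDKN1A had 2.57 and 2.71 RPKM at hypoxia 48 hr and 1.22 and 1.41 RPKM at hypoxia 6 hr. TP53INP1 (1.51-fold) and BOK (1.36-fold) lost their calls without any 1 of the 4 libraries (up to 0.274). MXD4, a MYC antagonist and the called gene of the MYC network, had 3.11 and 2.97 RPKM at hypoxia 48 hr and 1.07 and 1.04 RPKM at hypoxia 6 hr (2.27-fold, adjusted p = 0.000713).

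Of 12 Notch pathway genes 3 rose (25%): HES4, a transcriptional repressor (7.38 and 7.72 RPKM at hypoxia 48 hr, 3.11 and 2.70 RPKM at hypoxia 6 hr, 2.37-fold), the receptor NOTCH3 (1.24 and 1.24 RPKM at hypoxia 48 hr, 0.378 and 0.348 RPKM at hypoxia 6 hr, 2.02-fold) and NRARP (1.66-fold). NRARP lost its call without 4, 7 or 8 (adjusted p up to 0.0988), and 2 genes were called without library 4. Among Jumonji and TET dioxygenases, which need oxygen to demethylate chromatin, 2 of 23 rose, the histone demethylases KDM4A (1.53-fold) and KDM4B (1.42-fold). Both lost the call without 4, 7 or 8 (up to 0.162), so the count was 0 without library 4.

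Iron handling held 1 gene that was low at 6 hr of hypoxia. TFRC, the transferrin receptor that takes up iron, had 122 and 112 RPKM at hypoxia 48 hr and 55.2 and 55.6 RPKM at hypoxia 6 hr (2.09-fold higher, log2 1.07, SE 0.111, adjusted p = 0.000363). Its normoxia values were 94.6 and 95.3 RPKM at 48 hr and 102 and 81.7 RPKM at 6 hr, so the hypoxia 6 hr libraries lay below, and the hypoxia 48 hr libraries above, all 4 normoxia libraries. HMOX1, which frees iron from heme, had 21.0 and 18.0 RPKM at hypoxia 48 hr and 7.51 and 6.58 RPKM at hypoxia 6 hr (2.64-fold, adjusted p = 0.000251). STEAP3, a ferrireductase, fell, with 3.38 and 3.59 RPKM at hypoxia 48 hr and 5.29 and 4.79 RPKM at hypoxia 6 hr, a call that ended without any 1 of the 4 libraries (adjusted p up to 0.213). In all 2 of 12 rose and 1 fell, and 2 rose and 0 fell without library 4.

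The NRF2 and antioxidant list gave 4 higher of 24 and 1 lower, and 2 higher and 1 lower without library 4. TXNIP and HMOX1 led it, and the quinone reductase NQO1 (35.8 and 33.7 RPKM at hypoxia 48 hr, 25.0 and 23.6 RPKM at hypoxia 6 hr) and the sulfiredoxin SRXN1 (37.1 and 35.2 RPKM at hypoxia 48 hr, 28.6 and 26.0 RPKM at hypoxia 6 hr) rose 1.42-fold and 1.32-fold, calls that ended without 4, 7 or 8 (adjusted p up to 0.271). MT1F, a metallothionein that binds zinc, fell, with 0.909 and 0.898 RPKM at hypoxia 48 hr and 4.49 and 2.10 RPKM at hypoxia 6 hr. It also fell in normoxia, with 0.612 and 0.392 RPKM at 48 hr and 2.43 and 2.69 RPKM at 6 hr. Its hypoxia call (adjusted p = 0.00868) ended without 7 or 8 (up to 0.0799).

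The interferon response list split, with 3 of 26 higher and 3 lower, and with none in either direction without library 4 or without library 7. With no filter on low values the lower genes numbered 0. The nuclease ISG20 (2.73 and 2.04 RPKM at hypoxia 48 hr, 1.15 and 0.647 RPKM at hypoxia 6 hr) and the antigen-presenting HLA-B (60.6 and 52.1 RPKM at hypoxia 48 hr, 35.7 and 35.5 RPKM at hypoxia 6 hr) and HLA-C (1.44-fold) rose. The RNA sensor IFIH1 (0.494 and 0.670 RPKM at hypoxia 48 hr, 1.28 and 1.29 RPKM at hypoxia 6 hr), the immunoproteasome subunit PSMB9 and OAS3 fell. HLA genes share reads with near-identical relatives. ISG20 and HLA-B lost the call without 4 or 7 (adjusted p up to 0.105), HLA-C without 4, 7 or 8 (0.318), IFIH1 without 3, 4 or 7 (0.165), and PSMB9 and OAS3 without any 1 of the 4 libraries (up to 0.180).

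**Figure D4:**
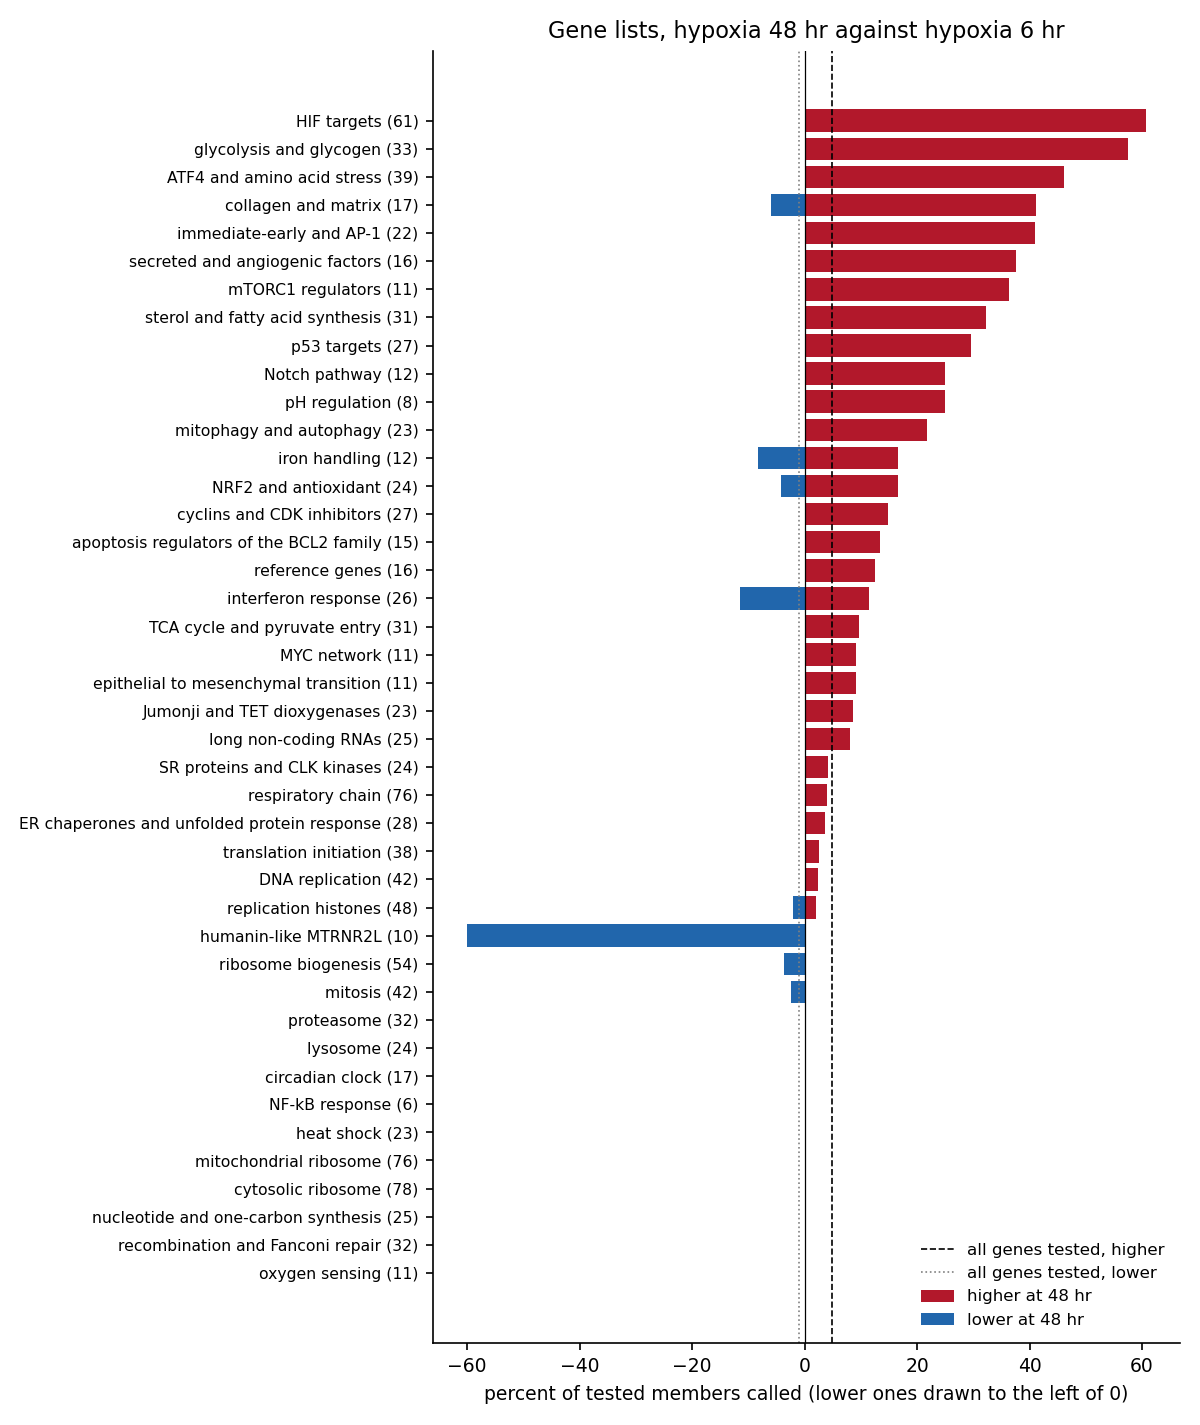
Percent of the tested members of 42 gene lists that were called higher (red) or lower (blue, left of 0) between hypoxia 48 hr and hypoxia 6 hr, with the number tested in parentheses and broken lines at the shares of all genes, 4.94% higher and 0.905% lower. The 5 lists of cell type markers are not drawn. Among the lists drawn HIF targets (60.7%), glycolysis (57.6%) and ATF4 genes (46.2%) reach furthest right and the MTRNR2L genes (60% lower) furthest left.

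Machinery of growth gave few or no calls. None of 78 cytosolic ribosome, 76 mitochondrial ribosome, 32 proteasome, 32 recombination repair, 25 nucleotide synthesis or 23 heat shock genes passed in limma, where 5.84% of all genes did. At an unadjusted p under 0.05 the counts were 0, 4, 2, 5, 4 and 1 in that order of lists, against 2662 of all genes. Circadian clock (17) and NF-kB response genes (6) gave no call either, with 3 and 2 at an unadjusted p under 0.05. These zeros depended in part on the scaling. After quantile normalization, and also after trimmed-mean centring, 2 recombination repair genes were called lower. So was 1 gene each of the mitochondrial ribosome, proteasome and NF-kB lists. The cytosolic ribosome, nucleotide synthesis, heat shock and clock lists stayed at 0 under both scalings. The median log2 fold change of the cytosolic ribosome was 0.09 in hypoxia and 0.33 in normoxia. That of heat shock genes was -0.06 in hypoxia and 0.19 in normoxia. Neither list had a member with a called difference from the normoxia change. Ribosome biogenesis gave 2 lower genes of 54, HEATR1 (15.4 and 16.0 RPKM at hypoxia 48 hr, 22.2 and 21.5 RPKM at hypoxia 6 hr) and UTP20 (10.5 and 10.8 RPKM at hypoxia 48 hr, 14.1 and 14.8 RPKM at hypoxia 6 hr), both large factors of the small subunit processome. Mitosis gave 1 lower gene of 42, the spindle pole protein ASPM (18.6 and 19.8 RPKM at hypoxia 48 hr, 24.2 and 26.1 RPKM at hypoxia 6 hr), and DNA replication 1 higher of 42, thymidine kinase TK1 (1.46-fold). These 4 calls ended without 4, 7 or 8 (adjusted p up to 0.248). Single genes were called in other lists, all higher: the integrin ITGA5 of 11 epithelial to mesenchymal transition genes, the kinase CLK3 of 24 splicing genes and PDCD4, which restrains the helicase eIF4A, of 38 translation initiation genes. H19 and NCRNA00219 were called of 25 long non-coding RNAs. The calls of ITGA5, CLK3, PDCD4 and NCRNA00219 ended without 4, 7 or 8 (up to 0.325), and that of H19 without 4 or 7 (up to 0.0665).

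Among the lowest fold changes were 6 of the 10 tested MTRNR2L genes (60%), nuclear copies of the mitochondrial ribosomal RNA sequence that encodes humanin. Their reads may come from near-identical copies or from mitochondrial RNA, which the deposited values do not separate. The median of the list was -0.82 in hypoxia and 0.58 in normoxia, but no member had a called difference from the normoxia change. MTRNR2L8, the one with most RNA per length, had 1049.9 and 1149.2 RPKM at hypoxia 48 hr and 2129.4 and 1897.4 RPKM at hypoxia 6 hr, and MTRNR2L1 had 211 and 203 RPKM at hypoxia 48 hr and 337 and 380 RPKM at hypoxia 6 hr. Both times differed without overlap. All 6 calls were lost without library 4, 7 or 8, and the count was 1 without library 3. It was 0 with no filter on low values and 10 when only the libraries of the groups compared were fitted.

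Other genes of the lowest 12 were RNF5, a ubiquitin ligase of the endoplasmic reticulum with a near-identical pseudogene (1.24 and 2.33 RPKM at hypoxia 48 hr, 4.22 and 4.09 RPKM at hypoxia 6 hr), the nucleosome-binding HMGN5 (3.57 and 4.29 RPKM at hypoxia 48 hr, 6.35 and 7.40 RPKM at hypoxia 6 hr) and RNF175 (1.04 and 0.974 RPKM at hypoxia 48 hr, 1.96 and 2.09 RPKM at hypoxia 6 hr). HMGN5 lost its call without 4 or 7 (adjusted p up to 0.0718), RNF175 without 4, 7 or 8 (0.0876) and RNF5 without 3, 4 or 7 (0.265). Replication histones, whose copies share reads, gave 1 higher gene (HIST1H4E) and 1 lower gene (HIST1H4A) of 48. The call of HIST1H4E ended without 4, 7 or 8 (up to 0.274) and that of HIST1H4A without 3, 4 or 7 (up to 0.265). No lower gene among the 12 remained called without each of the 4 libraries in turn.

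Of the 697 calls 15 were short RNAs, all named here after their values were seen. Those that rose were MIR210, MIR3143, MIR30B and MIR200C, and those that fell were MIR425 and 10 copies of SNORD115. MIR210, the hairpin gene of the microRNA best known as a HIF target, had 7.81 and 6.97 RPKM at hypoxia 48 hr and 2.13 and 2.04 RPKM at hypoxia 6 hr, against 0 and 0 RPKM in normoxia at 48 hr and 0.351 and 0.696 RPKM at 6 hr. It was 3.05-fold higher (log2 1.61, SE 0.284, adjusted p = 0.00999), and the call ended without 4, 7 or 8 (adjusted p up to 0.0988). On its hairpin of 110 bases 1 read is 0.237 to 0.260 RPKM in these 4 libraries, so the values stand for few reads. The mature strand, chr11:568112-568133 on the minus strand of GRCh38.p14 from RefSeq, is printed with its seed, bases 2 to 8, in capitals.
hsa-miR-210-3p: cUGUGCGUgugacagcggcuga
The libraries read total RNA and do not show how much of the mature strand was made.

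MIR3143 had 0.909 and 1.35 RPKM at hypoxia 48 hr and was listed at 0 in both hypoxia 6 hr libraries. In normoxia it had 0 and 0.343 RPKM at 48 hr and 0.918 and 0.608 RPKM at 6 hr, the last near its level at hypoxia 48 hr. MIR30B had 0.977 and 0.965 RPKM at hypoxia 48 hr and 0.296 and 0 RPKM at hypoxia 6 hr, and MIR200C had 6.74 and 4.99 RPKM at hypoxia 48 hr and 3.07 and 3.30 RPKM at hypoxia 6 hr. In normoxia MIR200C had 1.80 and 2.54 RPKM at 48 hr and 4.54 and 5.63 RPKM at 6 hr, a log2 change of -1.07 that was not called. These 3 calls did not hold without library 4 or 8 (adjusted p up to 0.293). MIR425 had 1.98 and 1.63 RPKM at hypoxia 48 hr and 4.20 and 3.55 RPKM at hypoxia 6 hr (1.90-fold lower, adjusted p = 0.00151), a call that held without each library in turn. It fell in normoxia too, with 0.846 and 0.745 RPKM at 48 hr and 3.55 and 3.52 RPKM at 6 hr. The SNORD115 genes are near-identical snoRNA copies of the Prader-Willi region, and 4 of the 10 have the same value in every library. SNORD115-44 had 19.2 and 19 RPKM at hypoxia 48 hr and 37.2 and 26.0 RPKM at hypoxia 6 hr, against 9.28 and 8.43 RPKM in normoxia at 48 hr and 32.2 and 31.7 RPKM at 6 hr. All 10 calls ended without library 7 (adjusted p up to 0.265).

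Over the same interval in normoxia 11 genes were called, 0.0922% of those tested, 1 higher (0.00838%) and 10 lower (0.0838%). Without normoxia 6 hr library 1 the count was 1310, with 1166 higher, so the number in normoxia rests on that library. The normoxia 6 hr libraries differed in depth, with inferred read totals of 51.8 M for library 1 and 26.1 M for library 2. Whether depth changed the counts was not tested. At an unadjusted p under 0.05 the counts were 2662 genes in hypoxia and 1957 in normoxia. Of the 589 genes that rose in hypoxia 483 had a positive change in normoxia and 0 were called there. The median normoxia log2 change of the 589 was 0.15, and it was 0.08 over all genes. Of the 108 that fell 71 had a negative change in normoxia and 9 were called there, 7 SNORD115 copies, MIR425 and MT1F.

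The difference between the hypoxia change and the normoxia change passed for 63 genes (0.528%). It was positive for 61 (0.511%), 59 of which had risen in hypoxia, and negative for 2 (0.0168%). The count ran from 11 to 110 when 1 of the 8 libraries was left out, the lowest without hypoxia 48 hr library 7 and the highest without normoxia 6 hr library 1. Of 32 named genes with a called difference 7 remained called without each library in turn and under every other setting that tested them. They were CA9, TXNIP, NPPB, KISS1R, ARRDC4, SESN2 and BNIP3L. The filter of at least 1 RPKM in 6 libraries did not test CA9, NPPB or KISS1R. Among the 8 libraries compared, CA9, NPPB and KISS1R reached 1 RPKM only in libraries 7 and 8, both of hypoxia 48 hr. On the log2(RPKM + 0.5) scale TXNIP had the largest of the 7, a log2 difference of 2.73 (limma adjusted p = 0.000353). CA9 followed at 2.63 (adjusted p = 0.000353) and NPPB at 2.03 (adjusted p = 0.00437). That scale makes the folds of low genes too small. The ratio of mean RPKM at hypoxia 48 hr over hypoxia 6 hr was 20.7 for CA9, 20.5 for NPPB and 5.57 for TXNIP. ARRDC4 differed by 1.66, KISS1R by 1.52, BNIP3L by 1.23 and SESN2 by 1.18. The other 25 lost the call without library 7, with an adjusted p of at most 0.238 in any fit that left out 1 library. Among HIF targets 13 of 61 had a called difference. BNIP3 was not among them (log2 difference 0.56, adjusted p = 0.200), with a normoxia change of 0.54.

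**Figure D5:**
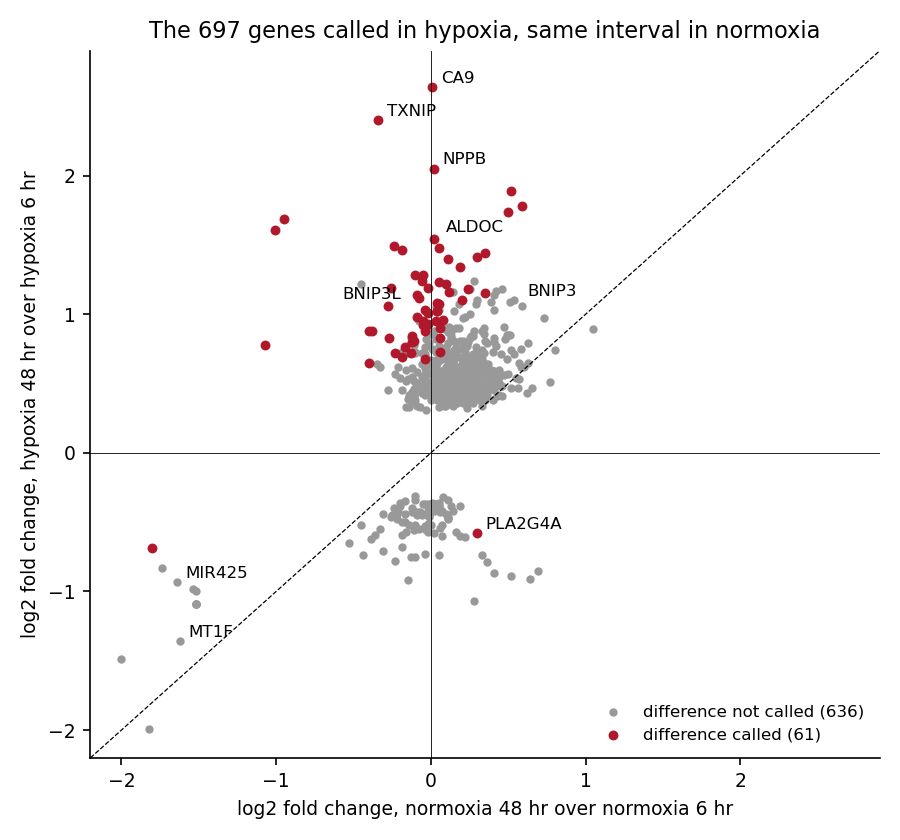
Log2 fold change of hypoxia 48 hr over hypoxia 6 hr (vertical) against normoxia 48 hr over normoxia 6 hr (horizontal) for the 697 genes called in hypoxia, in red where the difference of both changes was called (61 genes). Most points that rose lie above the broken line of equal change and near 0 on the horizontal axis, and MT1F and MIR425 lie low on both axes.

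The lowest called difference among genes that reached 2 RPKM was that of PLA2G4A, a phospholipase that frees arachidonic acid. PLA2G4A had 2.54 and 2.52 RPKM at hypoxia 48 hr and 3.94 and 4.10 RPKM at hypoxia 6 hr, and 5.49 and 5.15 RPKM in normoxia at 48 hr and 4.93 and 3.62 RPKM at 6 hr. The log2 difference was -0.88 (adjusted p = 0.0497), which ended without any 1 of libraries 3 to 8 (up to 0.207). H19, an imprinted long non-coding RNA, stood on the other side, with 14.2 and 12.4 RPKM at hypoxia 48 hr and 7.61 and 6.40 RPKM at hypoxia 6 hr, and 3.23 and 3.57 RPKM in normoxia at 48 hr and 4.49 and 4.68 RPKM at 6 hr. Its log2 difference was 1.26 (adjusted p = 0.0126), and it ended without library 4, 5 or 7 (up to 0.0876).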

How the data were processed

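Total RNA of 12 libraries in 6 groups of 2 was sequenced, and the authors deposited RPKM per gene symbol. The submitters' processing notes name Partek 6.6 and genome build hg19. Which aligner, gene models and RPKM denominator were used is not given in the sources used here. All sample columns of that table were used. Reads per library were inferred from precursor RPKM steps: 96.5 to 99.3% of values of up to 20 reads lay within 0.05 reads of whole.

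Of 22446 symbols the 11933 that reached 1 RPKM in 2 or more of the 12 libraries were tested on log2(RPKM + 0.5) by limma 3.58.1 (R 4.3.3), fitting a mean for each of 6 groups with an intensity trend, two-sided contrasts, Benjamini-Hochberg adjustment and a threshold of 0.05; residual degrees of freedom were 6, with 5.08 from the prior. The filter also counted the libraries of 6 days, which the comparisons do not use. Some genes low at 6 and 48 hr were therefore tested while others were not. FGF21, NDRG1 and STC1, for example, stayed under 1 RPKM in every 6 and 48 hr library and passed through the 6 day libraries. Among the 6 and 48 hr libraries CA9, NPPB, KISS1R, LOX and NOTCH3 reached 1 RPKM only in libraries 7 and 8. Libraries 7 and 8, where these genes are high, were thus enough to admit them to the test. The procedure was tested on simulated data. Figures used matplotlib 3.10.9 in Python 3.11.15.

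Members and 47 gene lists were chosen with earlier results of these data known. Named were the 12 highest and 12 lowest called genes whose higher group averaged 2 RPKM or more, without overlap between groups (short RNAs apart, which were named after their values were seen), 14 index genes, up to 4 called members per list and direction, and 5 differences per direction. Alternatives were the pseudocount, the filter, 2 scalings, no trend, only the groups' libraries, and each library left out. A result among the named genes is not reported here.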

Additional observations from a re-analysis of the deposited data

Results flagged for a closer look

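The change over the interval differed between hypoxia and normoxia for 63 genes by the test of the difference itself, and the log2 differences below are hypoxia 48 hr over 6 hr minus normoxia 48 hr over 6 hr. The differences that remained called without each library in turn were those of TXNIP (2.73), CA9 (2.63), NPPB (2.03), ARRDC4 (1.66), KISS1R (1.52), BNIP3L (1.23) and SESN2 (1.18). Among the other protein-coding genes the difference was 1.37 for CHAC1, 1.34 for ISG20, 1.29 for HMOX1, 1.24 for ALDOC, 1.20 for CKB, 1.15 for LOXL2, 1.12 for FGF21, 1.11 for DPYSL4 and 1.09 for FSCN1. It was 1.05 for HLA-B, 1.03 for NOTCH3, 1.01 for TFRC, 0.98 for LOX, 0.94 for VLDLR, 0.92 for RRAGD, 0.89 for PFKP, 0.88 for COL6A1, 0.88 for DDIT3 and 0.67 for PDK1, and -0.88 for PLA2G4A. Among non-coding RNAs it was 2.64 for MIR3143, 2.62 for MIR210, 1.84 for MIR200C (of which MIR3143, MIR210 and MIR200C changed by -0.95, -1.01 and -1.07 in normoxia), 1.26 for H19 and 1.11 for SNORD115-44. These 25 calls ended without library 7.

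In the precursor miRNA table, which the comparisons above do not use, hsa-mir-210 had 7.81 and 7.20 RPKM at hypoxia 48 hr (mean 7.51 ± 0.432, SD, n = 2). It had 2.13 and 2.04 RPKM at hypoxia 6 hr. In normoxia it was listed at 0 in both libraries at 48 hr, and at 0.351 and 0.696 RPKM at 6 hr. These values equal those of MIR210 above in the libraries of the same numbers, except in library 8 (6.97 RPKM there). They are therefore no separate support for the rise of MIR210.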

How the results depend on the processing

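The 697 hypoxia calls became 399 with no filter on low values, and leaving out 1 library gave 80 to 658. Under the other settings the count stayed within 1.5 times, from 539 to 709. The sign of all 697 was the same under every setting that tested them. The 63 differences became 31 with no filter, 97 after trimmed-mean centring and 36 with only the libraries compared, and 11 to 110 with 1 library left out. The 11 normoxia calls became 6 to 1310 with 1 library left out. The cause was not tested, though fits without a library have fewer samples. ADM, which was not called, changed sign from 0.06 to -0.01 after quantile normalization, to -0.02 after trimmed-mean centring and to -0.07 without library 7; leaving out 1 library gave -0.07 to 0.18. No paired analysis was possible because the groups compared share no replicate number. The depth limits short RNAs most, where a few reads set the value.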

Other observations

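Library 4 (hypoxia 6 hr) held RNA of genes that other libraries almost lacked. HBB, a globin, stood at 20.2 RPKM there, and SPP1 at 2.25 RPKM. The calprotectin subunits S100A9 and S100A8 stood at 1.61 and 1.40 RPKM, and HLA-DRA at 1.25 RPKM. Library 3 of the same group held 0.0417 RPKM of HBB.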
